A study of Chlorocebus sabaeus with 12 samples.

Results

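The metallothionein genes were followed on 12 one-colour microarrays of COS-1 cells, a line made from African green monkey kidney. They were taken as every probe of the array design that is named for MT2A, MT1A, MT1B, MT1E, MT1G, MT1H, MT1JP, MT1L, MT1M or MT1X, which gave 16 probes for 10 gene names among 41000 probes and 30982 names on the array. The family was selected on values of these arrays themselves (which comparison led to it is not recorded), so the differences between groups below describe its probes, and no count of them is a test of the family. The cells had been transfected for 24 h with the human bile acid receptor FXR (gene NR1H4), in which the serine at the mutated position was replaced by alanine (S154A) or by aspartate (S154D), and were then kept for 24 h in 0.1% DMSO or in CDCA. CDCA, chenodeoxycholic acid, is a bile acid that activates FXR; the labels give its concentration as 50 mM. Each of the 4 groups (S154A with DMSO, S154A with CDCA, S154D with DMSO, S154D with CDCA) had 3 arrays, each made from 500 ng of total RNA. All groups carried a transfected mutant receptor, and arrays of cells with the unmutated receptor or without any are not analysed here. The labels do not say whether the 3 arrays of a group came from separate cultures, so the spread between them may be technical in part.

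Metallothioneins are small proteins very rich in cysteine, whose sulphur atoms hold zinc, copper and cadmium ions. They buffer zinc and copper inside the cell and bind toxic metals, and liver and kidney make them in large amounts. Metals switch the genes on through the zinc-sensing factor MTF-1, and glucocorticoids and oxidative stress also raise them. In humans the MT1 genes, MT2A, MT3 and MT4 lie side by side in a single cluster, and the MT1 genes are recent copies of each other with nearly the same coding sequence. The probes were designed on human sequences and were hybridised with monkey RNA, so a probe's signal depends on how well it matches the monkey transcripts as well as on their amount. For this reason levels are compared only between arrays for the same probe, and never between probes.

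On the human genome build hg17, the 16 probes lie at chr16:55200782-55275470, a stretch of 74.7 kb. In that order along the chromosome come the probes of MT2A, MT1L, MT1E, MT1M, MT1JP, MT1A, MT1B, MT1G, MT1H and MT1X, and the design places the MT1G probes on the minus strand and all others on the plus strand. The probes of MT1A (A_23_P54840, chr16:55230706-55231309), of MT1G (A_23_P206707, chr16:55258789-55259436) and of MT1H (A_23_P163782, chr16:55261957-55262342) cover more genome than their 60 bases, by 544, 588 and 326 bases respectively, so each of these 3 joins separated pieces of the genome. The other 13 cover 60 bases in a row. No hg17 annotation was used, so positions in the coding sequence or untranslated regions are read from the probe's letters alone. Used for this were the end of the reading frame, or a frame without a stop codon that is rich in cysteine codons. In the printed probes below, the reading frame ends 30 bases before the end of the MT1B probe and 29 bases before the end of the MT1E probe.

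The probe letters bear on which family members an array can tell apart, and 5 pairs are shown to make this visible. The probes were compared with each other and not with transcripts. Each pair was aligned without gaps, with +1 for a match and -2 for a mismatch, and the best shared stretch was kept. The closest pair of different genes was MT1H with MT1X. Both probes lie in the coding sequence, and 7 of the 20 codons of this MT1H probe are cysteine codons. They share a stretch of 58 bases with 3 mismatches, which are the capitals in the lines below, and which read C18G, G42A and G45C when counted from the 5′ end of the MT1H probe.
MT1H A_23_P414343: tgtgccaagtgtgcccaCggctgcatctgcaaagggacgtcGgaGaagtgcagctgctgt
MT1X A_23_P303242: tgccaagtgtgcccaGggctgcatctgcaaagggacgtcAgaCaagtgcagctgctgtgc

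The second pair joined MT1A to the other MT1H probe, in a part of the coding sequence where 8 of 20 codons are cysteine codons. The shared stretch was 54 bases long with 4 mismatches, again in capitals, A8C, C36T, A43C and A46G counted on the MT1A probe.
MT1A A_23_P54840: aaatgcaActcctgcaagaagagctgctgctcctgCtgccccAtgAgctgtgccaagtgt
MT1H A_23_P163782: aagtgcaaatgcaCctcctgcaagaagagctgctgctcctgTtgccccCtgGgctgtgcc

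The MT1B and MT1E probes run over the end of the reading frame and into the 3′ untranslated part. They shared 53 bases with 7 mismatches, which are in capitals.
MT1B A_23_P37983: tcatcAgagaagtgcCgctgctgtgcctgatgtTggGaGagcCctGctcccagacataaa
MT1E A_23_P206724: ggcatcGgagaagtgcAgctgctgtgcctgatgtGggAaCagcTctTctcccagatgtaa

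The MT1G and MT1L probes both run over the end of the reading frame, the MT1L probe starting 2 bases further along, and their shared 35 bases, printed here without the rest of the probes, held 2 mismatches, C19G and C27A counted on the MT1G probe.
MT1G A_23_P60933, bases 3 to 37: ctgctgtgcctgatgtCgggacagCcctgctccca
MT1L A_23_P427703, bases 1 to 35: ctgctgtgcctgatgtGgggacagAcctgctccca

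The MT2A probes are the opposite case. They stand next to each other on the genome (chr16:55200782-55200841 and chr16:55200833-55200892) and have only 9 bases in common, the capitals below, so they read MT2A from nearly separate letters. Their ends around those bases are shown.
MT2A A_24_P361896, bases 46 to 60: tatgtaCAACCCTGA
MT2A A_23_P106844, bases 1 to 24: CAACCCTGAccgtgaccgtttgct

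Of 114 pairs of probes of different genes, 6 had a stretch scoring 30 or more, and these pairs involved 9 probes (MT1A, MT1B, MT1E A_23_P206724, MT1G A_23_P60933, both MT1H probes, MT1L A_23_P427703 and both MT1X probes). The other 7 probes were in no such pair: both MT2A probes, MT1E A_23_P420942, MT1G A_23_P206707, MT1JP, MT1L A_24_P357405 and MT1M. The closest relative of MT2A A_23_P106844 among other members was the MT1M probe, with 28 bases and 6 mismatches, and that of MT2A A_24_P361896 was MT1L A_23_P427703, with 15 identical bases. Outside the members, the probe of MT1F, another metallothionein gene, shared a longer stretch with MT2A A_24_P361896, 44 bases with 7 mismatches. The design's own list of matching transcripts names several RefSeq entries for 4 of these 9 probes and for none of the other 7: MT1A and MT1M for the MT1A probe, MT1H, MT1M and an unnamed entry for MT1H A_23_P163782, MT1H, MT1L and MT1X for MT1H A_23_P414343, and MT1A, MT1H and MT1X for MT1X A_23_P303242. A change seen by one of the 9 probes can therefore belong to more than 1 family member, and their gene names below are those of the design. The other 7 have no close partner among the member probes, but were not compared with the monkey transcripts. Whether they read 1 member alone is therefore not settled.

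**Figure D1:**
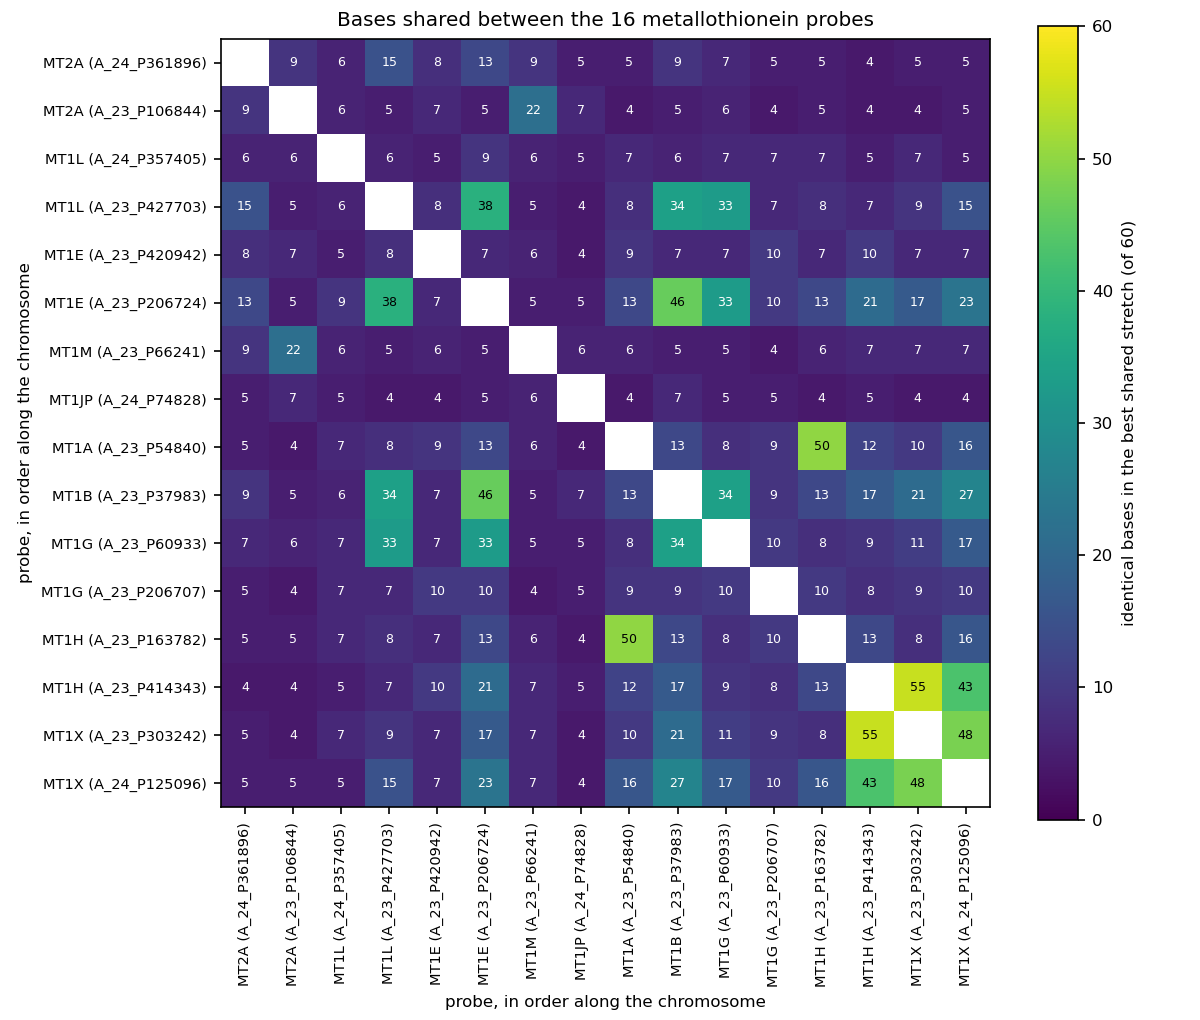
Each cell gives the number of identical bases in the best ungapped stretch shared by 2 of the 16 probes of 60 bases, with probes ordered along the chromosome on both axes. The brightest cells are MT1H A_23_P414343 with MT1X A_23_P303242 (55 identical bases) and MT1A with MT1H A_23_P163782 (50), while the MT2A rows hold at most 22, with MT1M.

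Between 61.6% and 79.8% of the spots were well above background, and the 75th percentile of the signal was 1235 to 2105. The 12 arrays sat on 4 slides, and slide 4 (scanned on another day) held only S154A CDCA array 2 and S154D DMSO array 2. All S154A DMSO arrays lay at position 1 of their slides and no other group did, so position and this group cannot be told apart. The NR1H4 probe, which reads the transfected receptor, had group means of 7.56 to 7.77 on the log2 scale used throughout, the log2 signal above the 75th percentile of its array. OSTalpha, a bile acid transporter gene that FXR switches on, was higher with CDCA by 2.56 ± 0.18 (SE, n = 3 against 3) with S154A (limma, adjusted p = 0.000252 over 26901 probes) and by 0.20 ± 0.18 with S154D (limma, adjusted p = 0.489). Of the markers listed for the cell type, 8 of 10 fibroblast genes, 6 of 6 epithelial genes, 3 of 7 hepatocyte genes and 3 of 6 leukocyte genes were well above background on all 12 arrays, while COL1A2, APOB and PTPRC were so on none. The summed level of the fibroblast markers was 7.38 to 7.77 over all arrays and overlapped between all groups. That of the epithelial markers was 6.72 to 6.98 in the S154A DMSO arrays, 6.97 to 7.03 in the S154A CDCA arrays, no lower than 6.93 in the S154D DMSO arrays and 6.61 to 6.82 in the S154D CDCA arrays, so the last group lay below the other CDCA group and below its own control. Hepatocyte markers were at 1.61 to 2.22 and leukocyte markers at -0.63 to -0.06, with overlap between all groups. The part of these markers in the results was not tested.

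Of the 16 member probes, 15 were well above background on all 12 arrays and were tested. The remaining probe, MT1L A_24_P357405, was not well above background on any of the 12 arrays and gave no comparison. No member spot was saturated or marked as an outlier, and the brightest had a signal of 113104.

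With S154A, the level was higher in CDCA than in DMSO for 14 of the 15 probes (41.5% of all probes tested were above 0), and the median difference was 0.55 on the log2 scale against -0.04 for all 26901 probes. MT2A led the family with 2.16-fold and 2.1-fold by its probes, followed by MT1X, MT1H and MT1B, and the MT1E probes and the second MT1G probe stood near 0. The limma fit called 2 member probes (adjusted p under 0.05), both of MT2A, and the same rule called 0.119% of all probes tested. The 3 CDCA arrays lay wholly above the 3 DMSO arrays for 9 probes, and wholly below for none, where 3.6% of all probes lay wholly above and 7.68% wholly below. These values took part in choosing the family, so the counts describe it and are not a test of it. More responding cells and more RNA per cell cannot be told apart in whole cultures.

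MT2A is the main metallothionein gene of most human cells and the one expressed most widely. By probe A_23_P106844 its log2 level was 3.65, 3.64 and 3.43 on S154A DMSO arrays 1, 2 and 3, and 4.53, 4.88 and 4.65 on S154A CDCA arrays 1, 2 and 3. On the S154D arrays it was 3.40, 3.52 and 3.39 with DMSO and 3.73, 3.77 and 4.02 with CDCA. The S154A CDCA arrays stood apart from all other arrays, and the S154D CDCA arrays lay above every DMSO array of either receptor but below every S154A CDCA array. The difference between CDCA and DMSO was 1.11 ± 0.13 (SE, n = 3 against 3; 95% interval 0.83 to 1.39; 2.16-fold) with S154A and 0.40 ± 0.13 (0.12 to 0.68; 1.32-fold) with S154D.

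The second MT2A probe, A_24_P361896, read the neighbouring letters. It gave 2.83, 3.03 and 2.66 with DMSO and 3.94, 4.17 and 3.63 with CDCA on the S154A arrays. On the S154D arrays it gave 2.56, 2.69 and 2.52 with DMSO and 3.19, 3.30 and 3.41 with CDCA. The order of the groups was the same as by the first probe, with no overlap between CDCA and DMSO for either receptor. The differences were 1.07 ± 0.15 (0.74 to 1.40; 2.1-fold) with S154A and 0.71 ± 0.15 (0.38 to 1.04; 1.64-fold) with S154D. The probes thus gave the S154A difference within their error of each other. They gave the S154D difference once as 0.40 and once as 0.71, with 95% intervals that overlapped (0.12 to 0.68 and 0.38 to 1.04).

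The S154A difference of MT2A was also present within single slides. By A_23_P106844 it was 1.00 on slide 1 (1 array of each group) and 1.10 on slide 3 (1 array of each), and by A_24_P361896 it was 0.80 and 1.28. With slide as a fixed block the differences were 1.07 ± 0.13 and 1.03 ± 0.15, but neither probe was called in that fit (limma, adjusted p = 0.0828 and 0.191). Leaving out each array in turn gave 1.02 to 1.19 and 0.94 to 1.21. The call of A_23_P106844 held without any single array. That of A_24_P361896 was lost without S154A DMSO array 1 or 3, S154A CDCA array 1 or 2, S154D DMSO array 1 or 3, or S154D CDCA array 2.

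MT1X and MT1H code for MT1 proteins that differ from each other in few residues, and their probes A_23_P303242 and A_23_P414343 are the near-identical pair printed first above. MT1X A_23_P303242 had log2 levels of 4.35, 4.53 and 4.18 with DMSO and 4.87, 5.50 and 4.93 with CDCA on the S154A arrays, and 4.31, 4.50, 4.05 against 4.38, 4.40, 4.53 on the S154D arrays. The CDCA arrays lay above the DMSO arrays with S154A and overlapped them with S154D. The differences were 0.75 ± 0.18 and 0.15 ± 0.18. MT1H A_23_P414343 had 4.55, 4.20 and 4.28 against 4.96, 5.63 and 4.91 with S154A, a difference of 0.82 ± 0.20, and 4.46, 4.84 and 4.30 against 4.63, 4.66 and 4.74 with S154D, a difference of 0.14 ± 0.20. The pattern was that of its near-identical partner, and for both the highest of all 12 values was that of S154A CDCA array 2. The second MT1X probe, A_24_P125096, shares 48 bases with the first and had 3.45, 3.72 and 3.27 against 4.15, 4.94 and 4.13 with S154A (0.93 ± 0.24), and 3.43, 3.75 and 3.06 against 3.50, 3.62 and 3.81 with S154D (0.23 ± 0.24). This was the widest spread within a group among these 3 probes, with S154A CDCA array 2 far above its companions. None of these 3 probes was called.

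The second MT1H probe and the MT1A probe form the other close pair in the coding sequence. MT1H A_23_P163782 had 4.53, 4.75 and 4.26 with DMSO and 4.85, 5.43 and 4.77 with CDCA on the S154A arrays, which did not overlap, a difference of 0.50 ± 0.20. MT1A, a metal-inducible MT1 gene, had 5.01, 5.35 and 4.80 against 5.25, 5.84 and 5.16, which overlapped, a difference of 0.36 ± 0.21. With S154D the differences were 0.06 ± 0.20 and 0.00 ± 0.21. The arrays of both groups were intermingled there for both probes.

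MT1B and MT1E were the pair whose probes are close in letters and apart in response. MT1B had 4.30, 4.49 and 4.19 with DMSO and 4.85, 5.27 and 4.82 with CDCA on the S154A arrays, without overlap, and MT1E A_23_P206724 had 4.61, 4.72 and 4.50 against 4.62, 4.93 and 4.71, with overlap. The differences were 0.65 ± 0.15 for MT1B and 0.14 ± 0.11 for MT1E, whose 95% intervals (0.32 to 0.99 and -0.11 to 0.39) overlap only in part. With S154D they were 0.02 ± 0.15 and -0.08 ± 0.11. The other MT1E probe, A_23_P420942, which shares at most 10 bases with another member, differed by 0.05 ± 0.13 with S154A and by -0.19 ± 0.13 with S154D. Neither MT1E probe therefore separated the CDCA arrays from the DMSO arrays with either receptor.

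MT1G was read by a pair of unrelated probes that disagreed. A_23_P60933, at the end of the reading frame, had 4.85, 4.89 and 4.55 with DMSO and 5.18, 5.72 and 5.19 with CDCA on the S154A arrays, without overlap, a difference of 0.60 ± 0.18. A_23_P206707 had 1.83, 2.25 and 1.66 against 1.55, 1.84 and 1.74, with overlap, a difference of -0.20 ± 0.16. With S154D the first probe differed by 0.00 ± 0.18. The second had 1.92, 2.09 and 1.82 with DMSO and 1.77, 1.64 and 1.53 with CDCA, the only member probe whose CDCA arrays lay wholly below its DMSO arrays with S154D (-0.29 ± 0.16). Since A_23_P60933 shares 36 bases with the MT1B probe and 35 with MT1L A_23_P427703, with 2 mismatches each, while A_23_P206707 has no close partner, a response of MT1G itself is not settled by these probes.

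The remaining members were MT1L and MT1JP, counted as pseudogenes in humans, and MT1M. MT1L A_23_P427703 had 5.36, 5.51 and 5.09 with DMSO and 5.51, 5.93 and 5.56 with CDCA on the S154A arrays, which met at 5.51, a difference of 0.34 ± 0.16. MT1JP, which shares no more than 7 bases with any other member probe, had -2.52, -2.42 and -2.91 against -2.31, -1.59 and -2.28, without overlap, a difference of 0.55 ± 0.20. With S154D the differences were 0.01 ± 0.16 and 0.11 ± 0.20. MT1M, a member with low signal here, had -4.06, -4.44 and -4.49 against -4.42, -3.55 and -4.30 with S154A, a difference of 0.24 ± 0.22 that rested on S154A CDCA array 2 alone, since it was -0.03 without that array. With S154D it had -4.76, -5.03 and -4.72 against -4.43, -4.47 and -4.31, without overlap, a difference of 0.43 ± 0.22. It was the only member outside MT2A whose CDCA arrays all lay above its DMSO arrays with S154D.

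**Figure D2:**
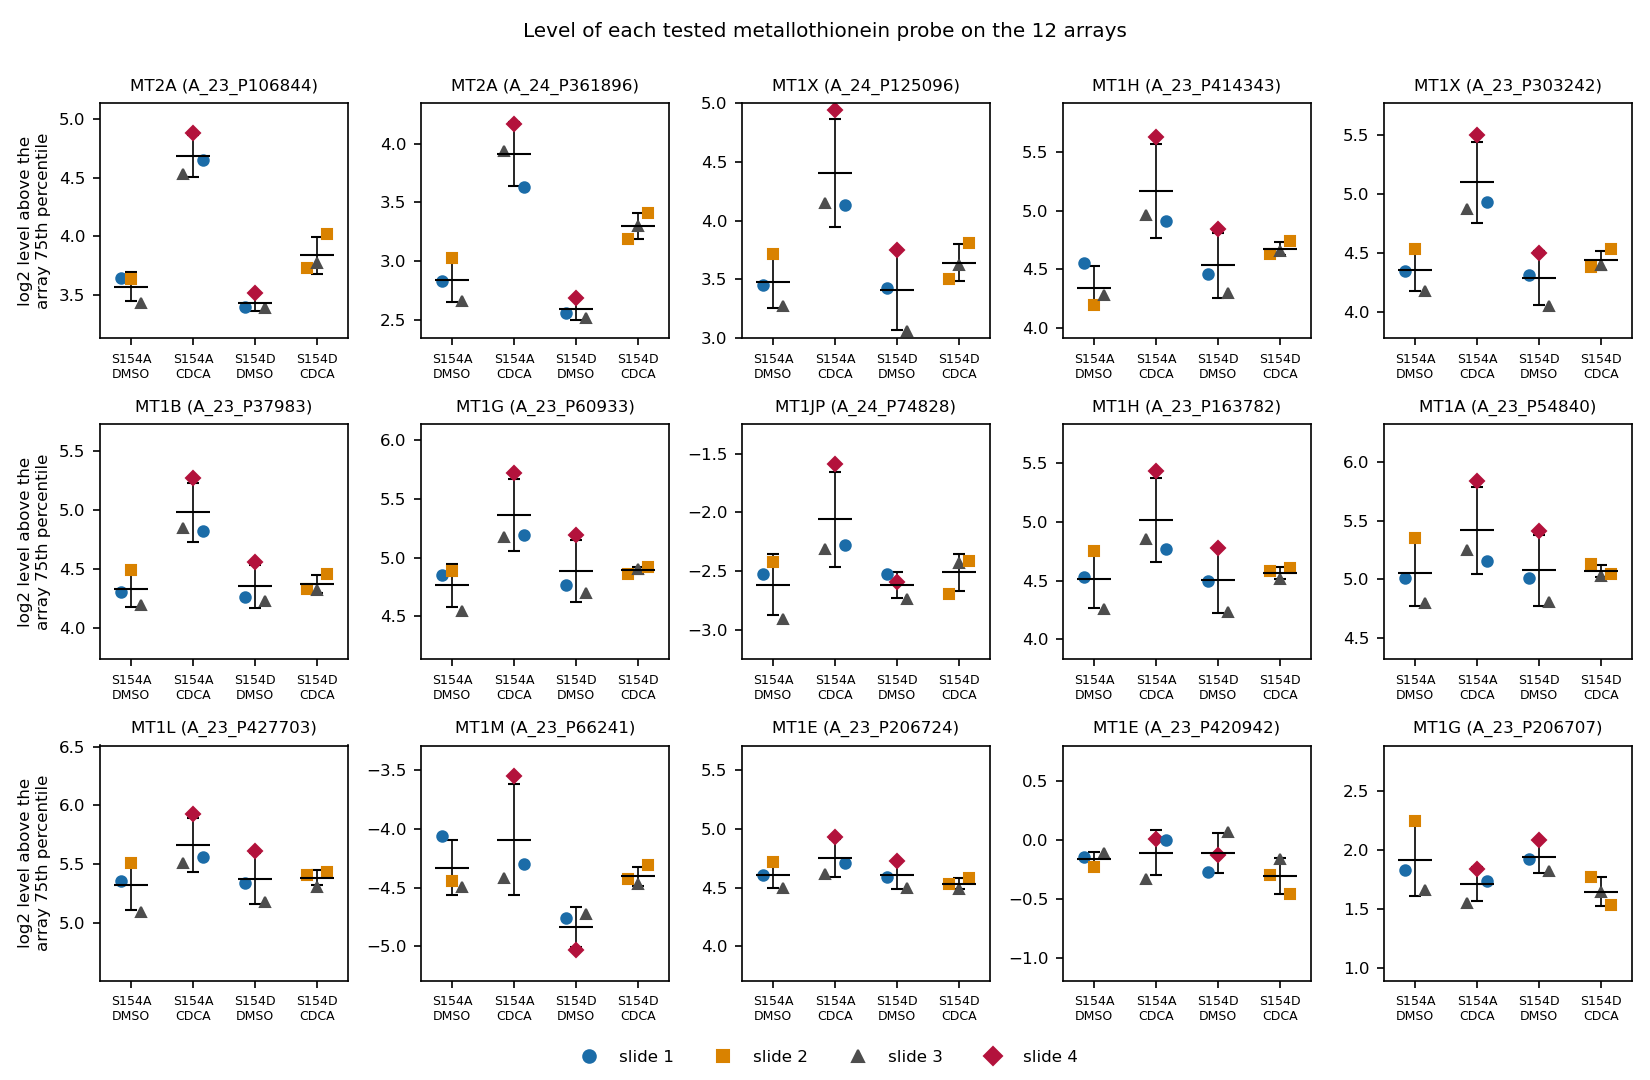
Log2 level above the array 75th percentile for each of the 15 tested probes on the 12 arrays, by group, with symbols for the slide, and the mean and SD of each group of 3 arrays in black; every panel spans the same range of log2 units. Probes are ordered by their S154A difference, from 1.11 for MT2A A_23_P106844 to -0.20 for MT1G A_23_P206707, and the slide 4 array is the highest of the S154A CDCA group in all 15 panels.

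A single array carried part of these values. S154A CDCA array 2, on slide 4, was the highest of its group for all 15 probes, and S154D DMSO array 2, on the same slide, was the highest of its group for 12. On slide 3, S154A DMSO array 3 and S154D DMSO array 3 were each the lowest of their group for 13 probes. Without S154A CDCA array 2 the median S154A difference over the 15 probes was 0.32 rather than 0.55, and 12 were above 0. Without both arrays of slide 4 it was also 0.32, and no member was called. Within slide 1 the median was 0.25 with 13 of 15 above 0, and within slide 3 it was 0.60 with 13 of 15 above 0. The members thus shared the direction within slides, at sizes that differed between slides.

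With S154D the family as a whole stood close to where it was in DMSO: the median difference was 0.06 against -0.02 for all probes, and 10 of 15 probes were above 0 (47.7% of all probes). The exceptions were MT2A by both probes and MT1M, whose CDCA arrays lay wholly above, and MT1G A_23_P206707, whose CDCA arrays lay wholly below. Only MT2A A_24_P361896 was called. In this comparison 11.6% of all probes tested were called, and 20% of all probes had CDCA arrays wholly above and 14.7% wholly below, so the share of members called (1 of 15) and separated upwards (3 of 15) was near that of the array as a whole. The call of A_24_P361896 was lost with slide as a fixed block (limma, adjusted p = 0.132) and without S154D DMSO array 1 or 3 or S154D CDCA array 2 or 3, and none of these 3110 calls on the array was left without S154D DMSO array 1, S154D DMSO array 3 or S154D CDCA array 3.

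The S154D response of all probes ran with the base composition of the probe, and this bears on the members. Over the 26901 probes the Spearman correlation of the S154D difference with the share of G and C in the probe was -0.56, against -0.10 for the S154A difference. The probes share the same 12 arrays, so these are descriptions. The member probes spanned 30% (MT1M) to 60% G and C, with 35% for MT2A A_23_P106844 and 45% for MT2A A_24_P361896. After a correction of each array for probe G and C, the S154D difference of MT2A A_24_P361896 was 0.78 ± 0.16, but that of MT2A A_23_P106844 was 0.07 ± 0.15 and that of MT1M -0.10 ± 0.26. The MT1 probes with more G and C moved the other way, for example MT1X A_24_P125096 from 0.23 to 0.58 and MT1H A_23_P163782 from 0.06 to 0.41. MT1G A_23_P206707, whose CDCA arrays lay wholly below before the correction, went from -0.29 to 0.05 ± 0.11. The corrected family median with S154D was 0.31, with 14 of 15 above 0, and no probe on the array was called. The S154A values hardly moved, with a corrected median of 0.57 and 1.08 ± 0.15 and 1.05 ± 0.16 for the MT2A probes. So the near absence of a family shift with S154D depended on whether that correction was made, and the shift with S154A did not.

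**Figure D3:**
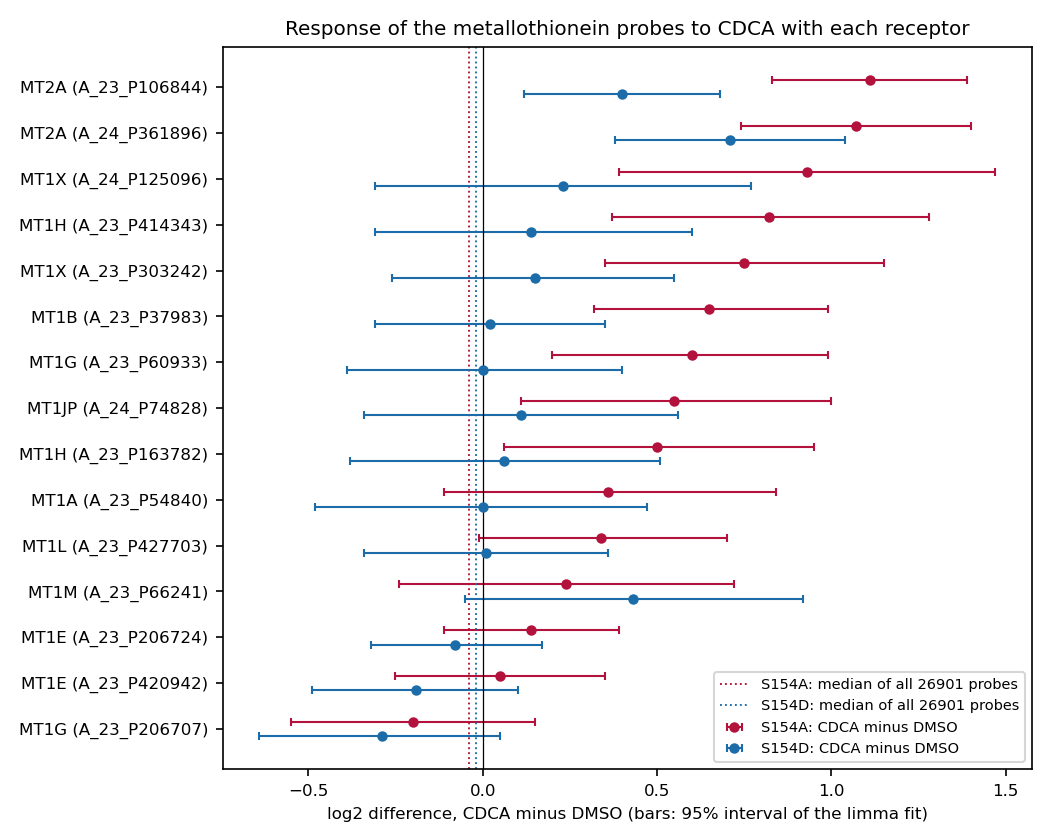
Log2 difference between CDCA and DMSO for each member probe, with S154A in red and S154D in blue; points are the fitted differences (3 arrays against 3), bars their 95% intervals, and dotted lines the medians of all 26901 probes (-0.04 and -0.02). The red points lie to the right of the blue ones for every probe except MT1M.

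**Figure D4:**
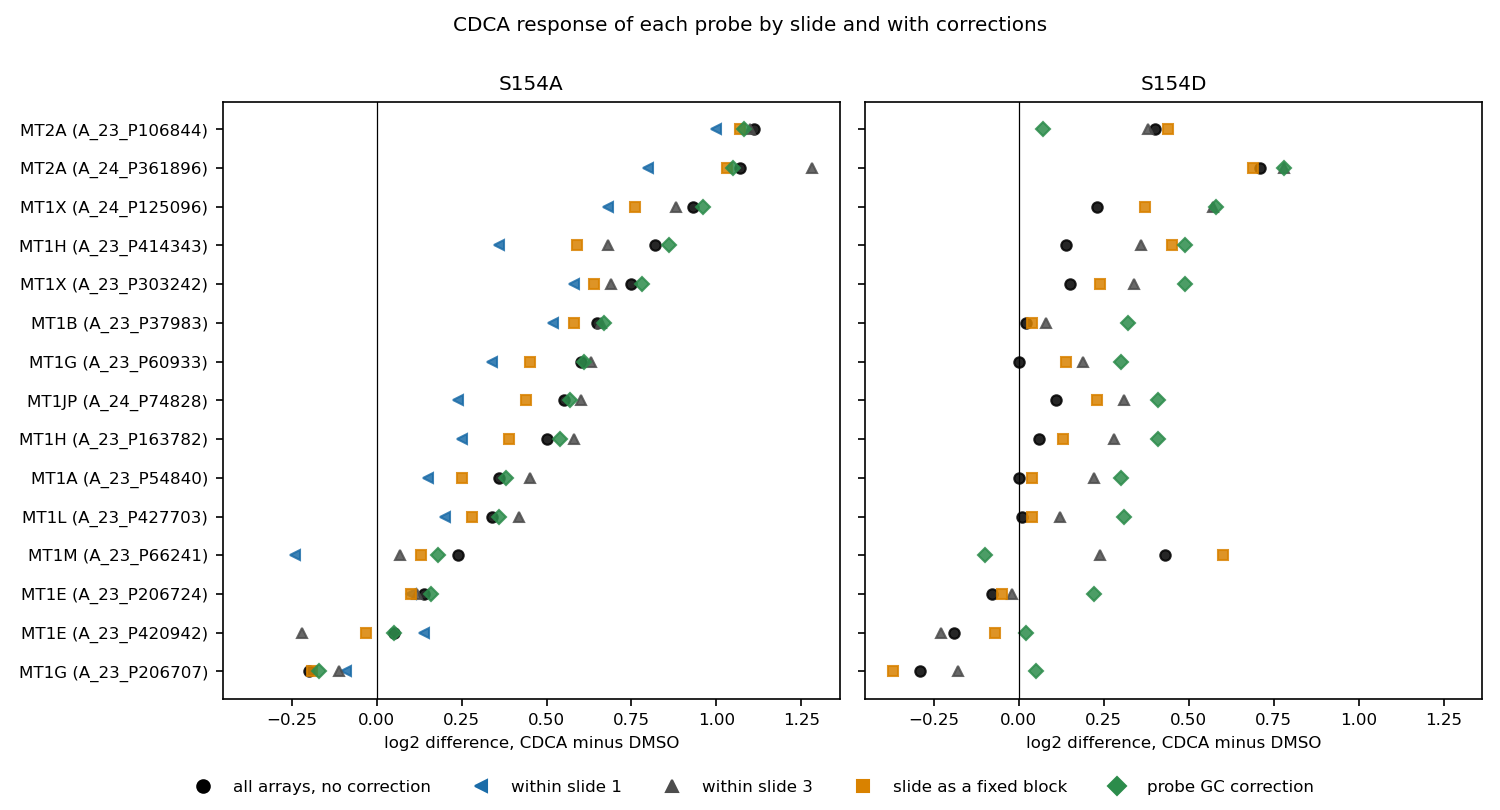
Log2 difference between CDCA and DMSO for each member probe, for S154A (left) and S154D (right), on all arrays, within slides 1 and 3 (1 array a group, slide 3 alone for S154D), with slide as a fixed block and with the correction for probe G and C. For S154A the MT2A points stay between 0.80 and 1.28, and for S154D the corrected points of most MT1 probes lie to the right of the uncorrected ones.

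The receptors were next compared under the same treatment. These comparisons use the same arrays as the ones above and are given beside them, not as further evidence. In DMSO the family did not separate: the median difference of S154D minus S154A was 0.00, 7 of 15 probes were above 0 (50.5% of all probes), and limma called no member and no probe of the array (0%). At an unadjusted p under 0.05 there were 1 member (MT1M) and 1179 of the 26901 probes. MT1M was the only member whose arrays did not overlap, at -0.51 ± 0.22 on the log2 scale, where 6.36% of all probes lay wholly lower with S154D and 5.01% wholly higher. Over all probes this receptor difference had a Spearman correlation of 0.33 with probe G and C. After the correction for it MT1M was at -0.33 ± 0.26. MT2A differed by -0.14 ± 0.13 and -0.25 ± 0.15. A p that misses the threshold does not show that the levels were equal, and the 95% interval of MT2A A_23_P106844 reached down to -0.42.

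In CDCA all 15 probes were lower with S154D than with S154A (53.9% of all probes were above 0), with a median of -0.45 against 0.04 for all probes. The S154D arrays lay wholly below the S154A arrays for 12 of 15 members, and wholly above for none, where 8.15% of all probes lay below and 19.8% above. The limma fit called 1 member, MT2A A_23_P106844 at -0.84 ± 0.13 (0.557-fold), and 0.346% of all probes. That call was lost without S154A CDCA array 2 or 3, S154D DMSO array 1 or 3 or S154D CDCA array 2, and with slide as a fixed block (-0.81 ± 0.15; limma, adjusted p = 0.26). MT2A A_24_P361896 differed by -0.61 ± 0.15, MT1X by -0.76 ± 0.24 and -0.67 ± 0.18, and MT1B by -0.61 ± 0.15. The differences closest to 0 were those of MT1G A_23_P206707 (-0.06 ± 0.16), MT1E A_23_P420942 (-0.20 ± 0.13) and MT1E A_23_P206724 (-0.22 ± 0.11). On slide 3, the only slide with all 4 groups, the median was -0.28, and without S154A CDCA array 2 it was -0.24 with 0 of 15 above 0. After the correction for probe G and C it was -0.26.

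The difference of the CDCA responses, S154D minus S154A, tests directly whether the receptors differ in the response. No member was called for it by limma, where 0.219% of all probes were. At an unadjusted p under 0.05 there were 5 of 15 members and 6022 of the 26901 probes. Its values were below 0 for 14 of 15 probes (51.5% of all probes were above 0) with a median of -0.44, and MT1M was the exception at 0.19 ± 0.31. For MT2A it was -0.71 ± 0.18 (95% interval -1.10 to -0.31) and -0.36 ± 0.21 (-0.83 to 0.11). So the larger S154A response of MT2A was seen by both probes in value, and did not pass the threshold over the array by either. With slide as a fixed block the median difference of the responses over the 15 probes was -0.24, with 1 above 0. With the correction for probe G and C it was -0.27, with 2 above 0, and within slide 3 it was -0.30, with 1 above 0. MT2A was at -0.63 and -0.35 with the slide block, and at -1.01 and -0.27 with the correction. The slide block and the correction together, an alternative chosen after seeing the data, gave a median of 0.01, with 8 of 15 above 0. In that fit MT2A was at -0.92 by A_23_P106844 and -0.22 by A_24_P361896 (limma, adjusted p = 0.409 and 0.737).

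The search of the array by letters turned up another probe that reads MT2A and carries no member name. A_23_P252413, named in the design only by the Ensembl transcript that the design also lists for the MT2A probes, shares 55 bases with MT2A A_23_P106844 with 1 mismatch (G55A, counted on the MT2A probe) and lies 5 bases further along, at chr16:55200838-55200897. It was looked at after its values were seen. Its mean level was -2.06 ± 0.19 (SD, n = 3) and -1.39 ± 0.12 with S154A in DMSO and CDCA, and -2.69 ± 0.24 and -2.06 ± 0.22 with S154D. The CDCA differences were 0.67 ± 0.16 (SE) with S154A and 0.63 ± 0.16 with S154D, and the difference between these responses was -0.04 ± 0.23. It was lower with S154D than with S154A in both treatments, by -0.63 ± 0.16 in DMSO and -0.67 ± 0.16 in CDCA. Of its 5 comparisons only the S154D response was called. Without the correction for probe G and C, this probe and its near twin were thus both higher in CDCA with both receptors. The sizes differed: 1.11 and 0.40 by MT2A A_23_P106844, 0.67 and 0.63 by A_23_P252413. The difference between the responses was -0.71 ± 0.18 by the former and -0.04 ± 0.23 by the latter. After the correction the S154D difference of MT2A A_23_P106844 was 0.07 ± 0.15, and that of A_23_P252413 is not given here.

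Across the 12 arrays the members largely moved together. The Pearson correlation with MT2A A_23_P106844 was 0.96 for the other MT2A probe, 0.93 and 0.91 for MT1X, 0.92 for MT1B, 0.80 and 0.85 for MT1H, 0.84 for MT1JP and 0.83 for MT1G A_23_P60933. It was 0.74 for MT1L, 0.69 for MT1M, 0.64 for MT1A and 0.63 for MT1E A_23_P206724, and it was 0.09 for MT1E A_23_P420942 and -0.34 for MT1G A_23_P206707. The last 2 probes share no long stretch with other members, but neither does that of MT1JP. With the group means removed, the correlations were 0.70 for the other MT2A probe, 0.83 and 0.81 for MT1X and 0.82 for MT1B and MT1JP. All points share the same 12 arrays and their scaling, and the near-identical probes also share letters. Over the 15 probes, the Spearman correlation of the S154A difference was 0.10 with the mean log2 signal and 0.01 with the share of G and C, and with the S154D difference it was 0.75.

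Among 18279 other named probes measured on all arrays, the 5 most like MT2A A_23_P106844 over the 12 arrays were BAIAP2L2 (r = 0.964), RGS16 (0.940), RBP4 (0.936) and both OSTalpha probes (0.934 and 0.931). BAIAP2L2 codes for a membrane-shaping adaptor, RGS16 for an inhibitor of G protein signalling and RBP4 for the retinol carrier of plasma. Their CDCA differences with S154A were 1.42, 0.90 and 2.21, and with S154D 0.23, 0.06 and 0.26. OSTalpha had 2.56 and 2.11 with S154A and 0.20 and 0.28 with S154D. The S154D values of MT2A, 0.40 and 0.71, lay above those of all 5, a difference that was not tested. None of these values was corrected for probe G and C. After that correction the MT2A values were 0.07 ± 0.15 and 0.78 ± 0.16. Corrected values of the other 5 probes are not given here, so the order of MT2A and these probes is given without the correction only.

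The rest of the family gave little. Of 12 further metallothionein names looked for, 4 were on the array and 2 were tested. MT3, the brain form, differed by -0.12 ± 0.23 with S154A and -0.24 ± 0.23 with S154D by its brighter probe. Its dimmer probe, A_23_P315273, had mean log2 levels of -3.75 ± 0.77 (SD, n = 3) and -3.87 ± 0.34 with S154A in DMSO and CDCA. With S154D that probe had -3.88 ± 0.37 and -3.58 ± 0.32, so CDCA was the higher group there, opposite to the brighter probe, and the groups overlapped. MTL5, a metallothionein-like gene of the testis, differed by -0.01 ± 0.14 with S154A and was higher with CDCA by 0.57 ± 0.14 with S154D (limma, adjusted p = 0.0354). The MT1F probe was well above background on 4 of 12 arrays and the MT4 probe on 5, and neither was tested.

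Of 23 tested genes that sense and move zinc, the limma fit called none with S154A, 12 were above 0, and the median was 0.03. At an unadjusted p under 0.05 there were 3 of the 23, and 1500 of all 26901 probes. SLC30A10, SLC39A4 and SLC30A1, transporters that carry zinc or related metals across membranes, were at -1.08 ± 0.47, -0.58 ± 0.22 and -0.48 ± 0.27, while SLC30A4 and SLC39A6, of the same families, were at 0.48 ± 0.69 and 0.37 ± 0.14. MTF1, the gene of the zinc sensor itself, which like SLC39A6 is named here after its values were seen, was at 0.10 ± 0.26. With S154D, 2 of the 23 were called, a share no higher than the 11.6% of all probes called in that comparison. Both were lower: SLC39A7 at -0.74 ± 0.16 (limma, adjusted p = 0.0279) and SLC39A1 at -0.49 ± 0.11 (limma, adjusted p = 0.0282), which carry zinc out of the secretory pathway and into the cell. Among those not called, SLC30A4 was at -0.88 ± 0.69, SLC39A8 at 0.53 ± 0.18, SLC39A3 at -0.52 ± 0.20 and SLC30A1, a known zinc-induced exporter, at 0.42 ± 0.27. Of 11 copper genes limma called none with either receptor, and the medians were -0.04 and 0.05. An unadjusted p under 0.05 was reached by 0 with S154A and 3 with S154D, against 1500 and 8312 of all 26901 probes.

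Of 17 genes of the heavy metal and oxidative stress response, limma called none with S154A (median 0.01; 0 at an unadjusted p under 0.05), and 2 were called higher with S154D, a share close to the 11.6% of all probes. These were GCLM at 0.66 ± 0.14 (limma, adjusted p = 0.0279) and GCLC at 0.58 ± 0.13 (limma, adjusted p = 0.0288), the subunits of the enzyme that starts glutathione synthesis. HSPA1A, a heat shock protein gene, was at -0.91 ± 0.27 with S154D (limma, adjusted p = 0.0513), and NFE2L2, the gene of a regulator of that response, was at 0.60 ± 0.20 (limma, adjusted p = 0.0748). Of 11 glucocorticoid receptor targets limma called none with S154A (median -0.05; 0 at an unadjusted p under 0.05). With S154D, 2 of the 11 were called, against the same 11.6% of all probes: TSC22D3 was lower by -0.59 ± 0.15 (limma, adjusted p = 0.0351) and ERRFI1 higher by 0.39 ± 0.11 (limma, adjusted p = 0.0445). All 7 genes called with S154D lost the call with slide as a fixed block (limma, adjusted p 0.132 to 0.175) and with the correction for probe G and C (0.227 to 0.370).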

How the data were processed

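Total RNA was labelled with Cy3 and hybridised to Agilent Whole Human Genome 4x44 arrays, per the labels' protocols. The files are scanner output of Agilent Feature Extraction (version 9.5.3.1 per the file headers; the submitters' processing notes name version 12), and the processed signal intensity they hold is background-corrected by the authors' scanner software, per the file headers. The deposited series table held the same intensity values unscaled (45015 of 45015 equal on each array, medians 104.56 to 214.28).

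Here the log2 processed signal minus each array's 75th percentile over 43376 non-control spots was used, outlier spots were dropped (149 of the tested probes lacked a value on some array, none of them a member), and spots of a probe were averaged. The 26901 probes that stood well above background throughout some group (3 of 3 arrays) were fitted with limma 3.58.1 in R 4.3.3, with 1 mean per group over 12 arrays, Benjamini-Hochberg adjustment over all of them and calls at an adjusted p under 0.05. Alternatives covered scaling, background, filter, slide, replicate number, probe G and C (lowess, span 0.5), array weights and arrays left out.

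The named probes were all members, the called and the up to 4 largest of each gene list, and the 5 probes most like MT2A. The members and lists were chosen with earlier results of these data known. Replicate numbers did not pair the arrays (correlations of deviations -0.27 to 0.40). Promoter motifs and protein sequences were not analysed here, and none of the 10 member names was found in the monkey gene table used, which lists MT3 and MT4. Precision is limited by having 3 arrays in a group.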

Additional observations from a re-analysis of the deposited data

How the results depend on the processing

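The S154A differences of MT2A kept their sign in every alternative tried, at 1.00 to 1.19 (A_23_P106844, 35 alternatives, called in 25 of the 33 that gave a test) and 0.80 to 1.28 (A_24_P361896, 34 alternatives, called in 16 of 32), and no called member value changed sign. The median S154A difference over the members ranged from 0.25 to 0.71 and that with S154D from -0.04 to 0.36. The count of members called with S154A (2) was 0 with the unscaled series table, slide as a fixed block, without slide 1, 2, 3 or 4, with only the arrays compared and with slide block and probe G and C correction together, and 1 with no filter and with 1 probe per gene name. The count with S154D (1) was 0 with the series table, no filter, 1 probe per gene name, slide as a fixed block, without slide 1, 2 or 3, with the probe G and C correction alone, with the replicate block or with the slide block, and with only the arrays compared, and 2 with median centring, the filter on all arrays, array weights and the eBayes trend. The count for the receptors in CDCA (1) was 0 with median centring, the series table, no filter, slide as a fixed block with or without probe G and C correction, without slide 1, 2, 3 or 4, and with only the arrays compared, 3 with quantile normalisation and 4 with array weights. The count for the difference of responses (0) was 1 with array weights, and that in DMSO was 0 throughout. Leaving out each array in turn gave 1 to 2, 0 to 1, 0 to 0, 0 to 1 and 0 to 0 members called in these 5 comparisons, in the order S154A, S154D, DMSO, CDCA, difference. With the replicate block the counts were 2, 1, 0, 0 and 0: the call in CDCA was lost and no other. Over all probes the calls ranged from 0 to 42 with S154A, 0 to 8870 with S154D, 1 to 3143 in CDCA and 0 to 3330 for the difference, against 32, 3110, 93 and 59. Of the single member values, 7 of 520, 50 of 505, 14 of 520, 27 of 505 and 71 of 490 moved by more than the SD between replicates in the 5 comparisons. With 1 probe per gene name, MT2A was represented by A_23_P106844 alone, so A_24_P361896 could not be called there. The cause of the other shifts was not tested, apart from fewer arrays where arrays were left out. Without slide 2 a single S154D CDCA array was left, which was assumed to vary like the other groups. MT1M, with low signal, is uncertain (SE 0.22 for the S154A difference), as is MT1X A_24_P125096 (SE 0.24). MT1L A_24_P357405 gave no comparison.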
